A study of Homo sapiens with 12 samples.

Results

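The Wnt pathway genes described here are 54 genes for ligands, their secretion, receptors, the destruction complex and the nuclear partners of β-catenin, of 28747 gene identifiers in the count table. They were picked by name and role, by a rule that uses no measured value though it was written with earlier results of these data known, and matched to the Ensembl identifiers of the table. The RNA came from DU145 cells, an established human prostate cancer line. All cells carried a stable lentiviral short hairpin, either a control hairpin (shCtrl) or a targeting hairpin (shSigma), and were selected with puromycin. Both lines were grown as adherent (adh) cultures or as tumor spheres (TS), that is in serum-free medium with B-27, insulin, FGF2 and EGF on plates that prevent attachment, so that the medium differed along with the attachment. The 4 groups held 3 independent replicates each. Each hairpin is represented by 1 line, hence an effect of the targeting hairpin and another difference between the lines cannot be told apart.

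Wnt ligands are lipid-modified by PORCN, carried out of the cell by WLS and bound by Frizzled receptors with an LRP co-receptor. Without ligand, the destruction complex of AXIN, APC, the GSK3 kinases and casein kinase 1α marks β-catenin for degradation through the F-box proteins BTRC and FBXW11. With ligand, Dishevelled recruits AXIN to the receptor, and β-catenin accumulates and works with TCF and LEF factors at target genes, several of which (AXIN2, NKD1, ZNRF3, RNF43, LGR5, TCF7, LEF1 and DKK1) feed back on the pathway. Since β-catenin is controlled mainly through protein stability, its transcript and the transcripts of these feedback targets are separate readouts. The study followed β-catenin protein in shSigma cells, and the comparisons below address the transcripts of the pathway around it.

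The libraries held 16472722 to 26957777 counts, with a median of 19620493. Levels are given as CPM, the count of a gene relative to the TMM-scaled total of its library, and between genes as CPM per kb of exon. No pair of replicates was alike within sampling noise (chi-square of 2.73 to 44.2 per gene). Replicates also differed along the GC content of the transcripts, most in adherent culture, where the deviation of a library from its group mean had a Spearman correlation with GC content between -0.654 and 0.706 (across genes, as a description). Of the defining prostate markers, KLK3 and KLK2 had at most 3 counts in every library, as did the basal keratin KRT5. The summed level of 7 epithelial markers ranged over 1404 to 1733 CPM in adherent shCtrl, 2548 to 3444 CPM in adherent shSigma, 2830 to 2966 CPM in tumor sphere shCtrl and 1560 to 1666 CPM in tumor sphere shSigma libraries. The markers did not move together. EPCAM and CDH1 went from means of 234.9 and 26.83 CPM in adherent shCtrl to 30.91 and 12 CPM in adherent shSigma, and from 613.0 and 726.3 to 61.88 and 27.77 CPM in tumor spheres. The keratins KRT7, KRT19, KRT8 and KRT18 went from 639.8, 92.7, 234.0 and 320.5 CPM to 1757, 359.1, 412.6 and 501.3 CPM in adherent cells, and in tumor spheres from 573.8, 198.1, 384.0 and 391.3 CPM to 700.8, 217.5, 332.7 and 288.8 CPM. The part of these epithelial differences in the results below was not tested. In bulk RNA, fewer cells of a type and less RNA per cell cannot be told apart.

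**Figure D1:**
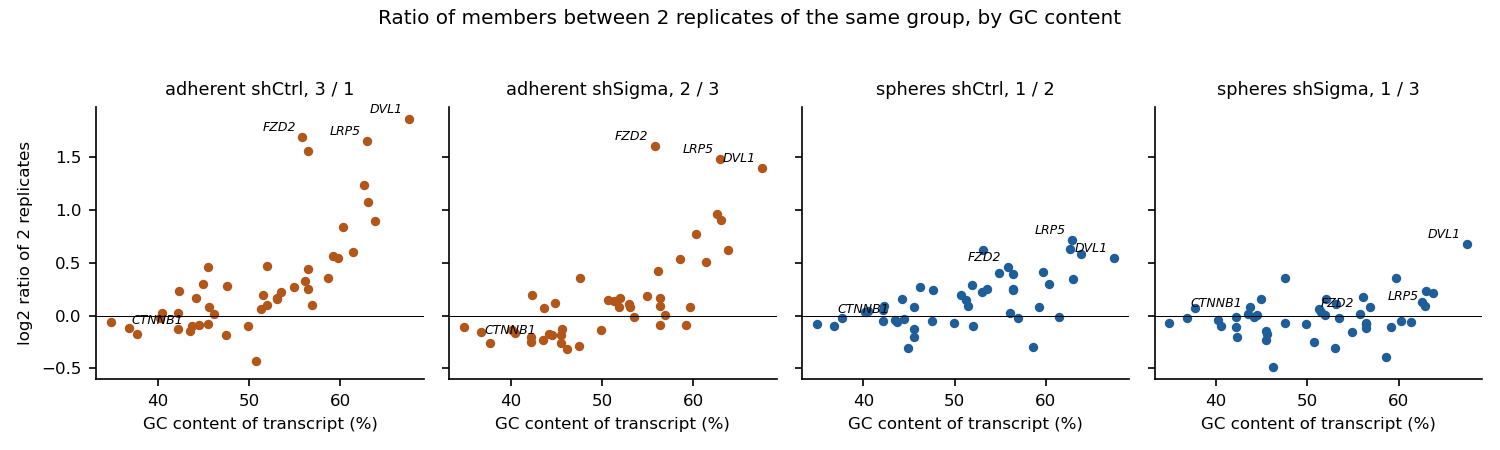
log2 ratio of CPM between a pair of replicates of the same group (vertical axis) against the GC content of the transcript in percent (horizontal axis), for the 45 members with a mean of at least 1 CPM. The pair shown is the one farthest apart along GC content, except in tumor sphere shCtrl. There replicate 1 is shown, and replicate 3 deviated by nearly the same (Spearman correlations of 0.27 and 0.274). The GC-rich members DVL1 and LRP5 reached ratios of 1.86 and 1.65 in adherent shCtrl and of 1.40 and 1.49 in adherent shSigma, while CTNNB1 stayed between -0.23 and 0.02 in all 4 groups.

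Adherent shSigma cells differed from adherent shCtrl cells by lower WNT5B, LEF1 and WNT10B and by higher DKK3, PRICKLE1 and WNT7B. Of the 54 members, 45 passed the filter on low counts, and 12 of them were higher and 9 lower at an adjusted p under 0.05. Over all genes tested in adherent cells, 50.0% were called, 22.3% as higher and 27.7% as lower, so that the 21 members called (46.7%) were near the background. Past a 2-fold change as well there were 9 members, against 13.7% of all genes, with 5 of them higher (7.59% of all genes) and 4 lower (6.13%). With at least 10 counts required in every library there were 8, since LGR6 dropped out. The groups of 3 libraries did not overlap for 26 of the 45 members, against 57.9% of all genes. The median log2 fold change was 0.21 over the tested members and -0.01 over all genes. With library offsets for GC content, an alternative chosen after seeing the data, 19 members were higher instead of 12.

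In tumor spheres, 48 members passed the filter, of which 23 were higher and 14 lower. Here 61.1% of all genes were called, 30.2% as higher and 30.9% as lower, while 77.1% of the tested members were called. Past a 2-fold change there were 10 members, against 13.1% of all genes, with 5 higher (5.94%) and 5 lower (7.17%). With at least 10 counts required in every library there were 7. WNT5B, WNT10A and ROR2, all lower, then dropped out, since they passed the main filter through their shCtrl libraries. The groups did not overlap for 39 of the 48 members, against 66.8% of all genes. The median absolute log2 fold change was 0.50 over the members and 0.34 over all genes. The comparisons in the 2 cultures rest on separate libraries. Of the 44 members tested in both, 8 were higher in both, 8 were lower in both, 15 were called higher and 4 lower in tumor spheres only, 4 were called higher in adherent cells only and 5 were called in neither. A call in 1 culture alone is not a difference between cultures, which the interaction of hairpin and culture tested for each gene and which was called for 17 of 49 members (28.4% of all genes), 6 as higher (12.7%) and 11 as lower (15.6%) in tumor spheres. Of these, 9 were past a 2-fold difference, against 8.54% of all genes. Log2 fold changes are of shSigma over shCtrl with the SE after ±, and adjusted p-values are those of edgeR (quasi-likelihood F-test, Benjamini-Hochberg, over every gene tested).

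**Figure D2:**
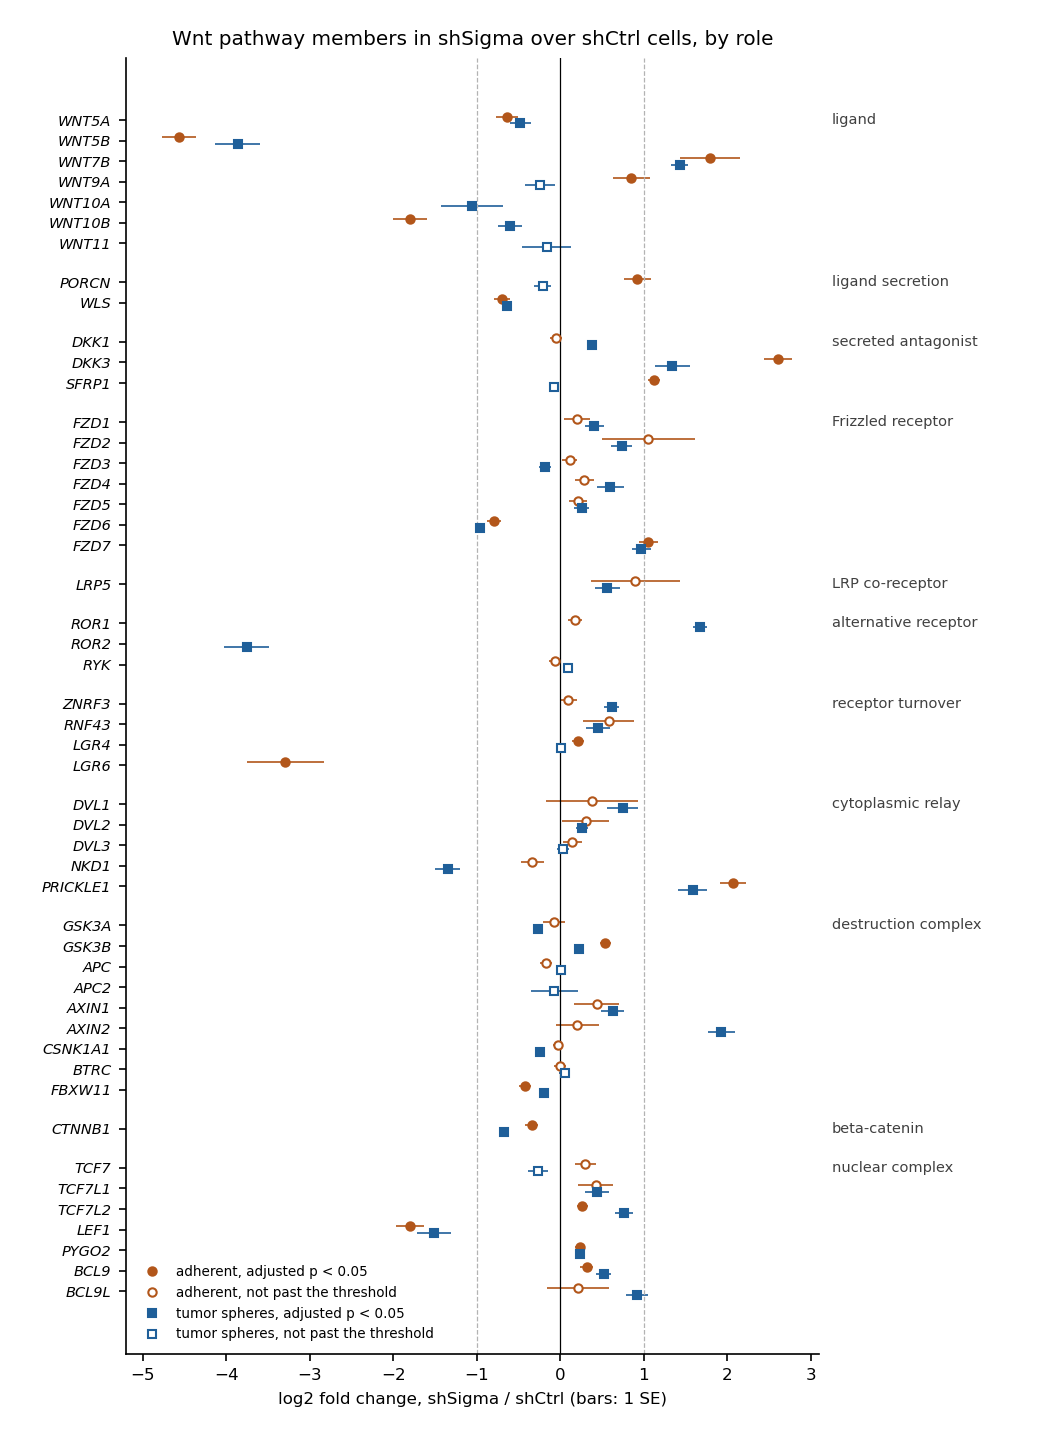
log2 fold change of shSigma over shCtrl with 1 SE (horizontal axis) for the 49 members tested in at least 1 culture, grouped by role, with circles for adherent cells and squares for tumor spheres, and filled symbols for an adjusted p under 0.05. WNT5B lies farthest to the left in both cultures, at -4.57 and -3.86, and ROR1, NKD1 and AXIN2 are past the dashed 2-fold lines in tumor spheres only.

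Among the ligands, WNT5B, which signals mainly without β-catenin, showed the lowest log2 fold change of all members in both cultures. It had 12.8, 12.5 and 16.4 CPM in adherent shCtrl and 0.524, 0.768 and 0.530 CPM in adherent shSigma libraries. In tumor spheres the values were 3.69, 4.53 and 3.43 CPM against 0.202, 0.318 and 0.265 CPM. Every shSigma library lay far below every shCtrl library of its culture. The adherent log2 fold change was -4.57 ± 0.20 (23.7-fold, adjusted p = 7.77e-06). For tumor spheres it was -3.86 ± 0.27 (adjusted p = 2.08e-07), and the 3 shSigma libraries held 4 to 6 counts each there. Its close relative WNT5A fell less, by 0.64 and 0.48 on the log2 scale, and without replicate 1 of adherent shSigma the adherent call was lost at -0.48 (adjusted p = 0.0512).

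WNT10B and WNT7B, ligands that can act through β-catenin, moved in opposite directions. WNT10B had 4.91, 6.60 and 7.26 CPM in adherent shCtrl and 2.24, 1.64 and 1.74 CPM in adherent shSigma libraries, and 7.67, 7.23 and 8.51 CPM against 5.44, 4.18 and 5.88 CPM in tumor spheres. The groups were apart in both cultures, with log2 fold changes of -1.79 ± 0.20 (adjusted p = 0.000308) and -0.60 ± 0.14 (adjusted p = 0.00329), and the fall was smaller in tumor spheres by 1.14 ± 0.26 on the log2 scale (interaction, adjusted p = 0.00472). WNT7B had 12.9, 18.0 and 27.4 CPM in adherent shCtrl against 79.7, 84.5 and 45.2 CPM in adherent shSigma libraries. The tumor sphere values were 36.8, 28.9 and 36.2 CPM against 101.5, 87.9 and 86.4 CPM. Its groups did not overlap, although the adherent replicates of either hairpin were widely spread, and the log2 fold changes were 1.80 ± 0.36 (adjusted p = 0.00744) and 1.43 ± 0.10 (adjusted p = 5.39e-07). With a block for the replicate number in the fit, the adherent call was lost at the same size (1.80, adjusted p = 0.0523). The transcript of WNT7B has a GC content of 63.0%, in the range where the adherent replicates differed most.

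WNT9A was higher in adherent cells only (log2 fold change 0.85 ± 0.22, adjusted p = 0.0142), a call that DESeq2 did not make (adjusted p = 0.0739). In tumor spheres its value was -0.25 ± 0.18, and the difference between cultures was -1.16 ± 0.28 (adjusted p = 0.00716). Among the hairpin comparisons WNT10A was tested only in tumor spheres, with 18, 14 and 16 counts in shCtrl and 13, 5 and 6 counts in shSigma libraries. Its log2 fold change of -1.06 ± 0.37 (adjusted p = 0.026) was lost without any 1 of 3 libraries, namely replicate 1 of tumor sphere shCtrl and replicates 2 and 3 of tumor sphere shSigma, at -0.91 to -0.83. WNT11 stood near 1 CPM in tumor spheres of both lines and was not called, at -0.16 ± 0.29. WNT3 and WNT7A had at most 4 and 6 counts in any library and were not tested.

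The genes for ligand secretion also differed. WLS, the carrier that brings Wnt proteins to the cell surface, had 102 to 117 CPM in adherent shCtrl and 63.5 to 79.8 CPM in adherent shSigma libraries, and 159 to 165 CPM against 101 to 108 CPM in tumor spheres. It fell by 0.70 and 0.64 on the log2 scale in the 2 cultures without overlap of the groups. PORCN, the acyltransferase that modifies the ligands, rose in adherent cells (0.93 ± 0.16, adjusted p = 0.00236) from 5.72 to 7.18 CPM in shCtrl to 10.9 to 14.6 CPM in shSigma libraries. In tumor spheres its value was -0.21 ± 0.10, and the difference between cultures was -1.19 ± 0.18 (adjusted p = 0.000205).

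DKK1, a secreted inhibitor of the LRP co-receptors and a feedback target, did not separate the adherent groups, with 181.2, 168.5 and 169.7 CPM in shCtrl and 172.1, 181.2 and 172.1 CPM in shSigma libraries. Between the tumor sphere groups it rose from 100.6, 105.1 and 92.59 CPM to 135.6, 124.4 and 128.1 CPM. The adherent values overlapped, while every shSigma sphere library exceeded every shCtrl sphere library (0.38 ± 0.06, adjusted p = 0.000191, and a difference between cultures of 0.36 ± 0.09). The promoter of DKK1 is shown because, of the 38 members with a RefSeq promoter window (GRCh38.p14, 250 bases before and 50 after the gene start), it was the only one with the TCF/LEF core letters CTTTGAT or CTTTGAA on either strand. These letters occurred in 2.63% of the member windows and in 6.86% of the 35116 windows searched. The 250 bases before the start, at chr10:52314031-52314280 on the + strand, are given with the match in capitals, 95 bases before the gene start.
DKK1: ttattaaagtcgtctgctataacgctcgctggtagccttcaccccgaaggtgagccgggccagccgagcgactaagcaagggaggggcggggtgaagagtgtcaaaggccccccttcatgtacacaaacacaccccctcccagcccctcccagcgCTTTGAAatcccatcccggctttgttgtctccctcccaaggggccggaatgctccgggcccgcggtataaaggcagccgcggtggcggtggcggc
A match of letters is a description of the window and not a binding site, and the windows of the 3 other feedback targets in the table, RNF43, TCF7 and LEF1, held no such letters.

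DKK3, a Dickkopf relative that is often silenced in tumors, was low in shCtrl cells and rose in shSigma cells. It had 1.15, 1.61 and 1.42 CPM in adherent shCtrl and 8.09, 9.62 and 8.87 CPM in adherent shSigma libraries, and 0.761, 0.938 and 0.957 CPM against 2.37, 2.33 and 2.12 CPM in tumor spheres. All shSigma libraries lay above all shCtrl libraries of their culture, with log2 fold changes of 2.61 ± 0.17 (adjusted p = 2.65e-05) and 1.34 ± 0.21 (adjusted p = 0.000165). The rise was smaller in tumor spheres by 1.32 ± 0.25 (adjusted p = 0.00153). DKK3 overlaps exons of USP47 on the opposite strand, and the use of strand in counting is not given in the sources used here.

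SFRP1, a secreted Frizzled-like protein that binds Wnt ligands, rose in adherent cells only. It had 33.4, 32.4 and 31.2 CPM in adherent shCtrl against 71.3, 71.5 and 78.6 CPM in adherent shSigma libraries, and 54.0, 56.7 and 52.3 CPM against 50.0, 52.3 and 52.8 CPM in tumor spheres. The adherent groups were widely apart and the tumor sphere groups overlapped. The log2 fold changes were 1.13 ± 0.07 (adjusted p = 2.65e-05) and -0.07 ± 0.06 (95% interval -0.21 to 0.06), and the difference between cultures was -1.26 ± 0.09 (adjusted p = 4.71e-07).

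**Figure D3:**
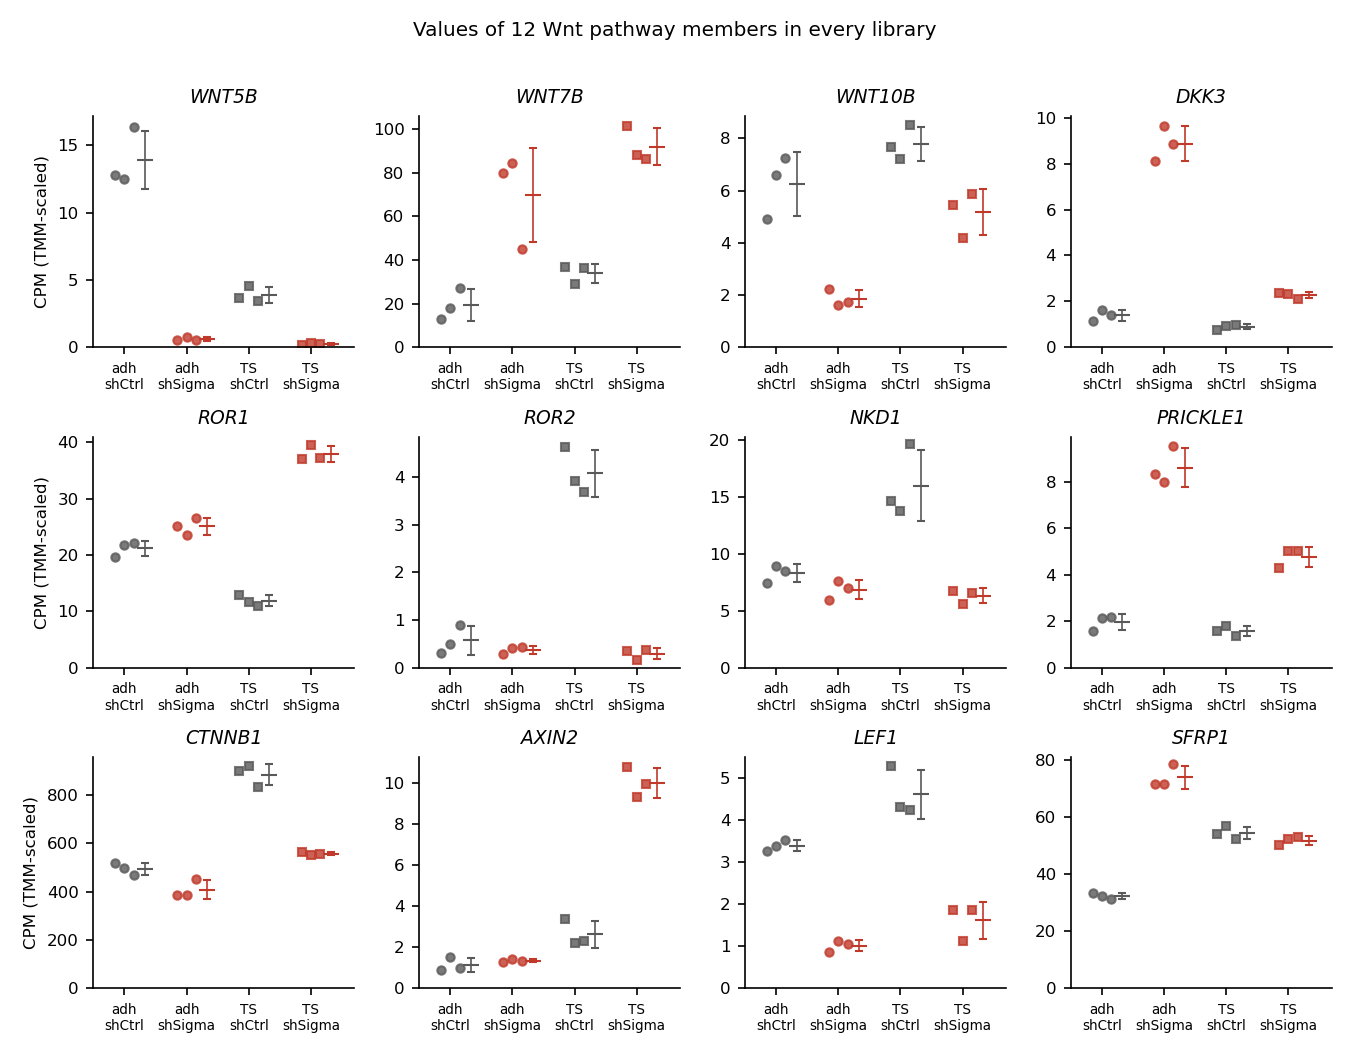
CPM of 12 members in every library (vertical axis, linear and starting at 0), with circles for adherent cells and squares for tumor spheres, grey for shCtrl and red for shSigma, and the mean with 1 SD beside each group of 3. WNT5B and LEF1 are lower in all shSigma libraries, whereas AXIN2 reaches 9.32 to 10.8 CPM only in shSigma tumor spheres and ROR2 reaches 3.68 to 4.62 CPM only in shCtrl tumor spheres.

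The Frizzled receptors, which bind the ligands at the cell surface, were led by FZD6, a member linked to planar polarity, at 88.1 CPM per kb in adherent shCtrl libraries, whereas the other Frizzled transcripts had at most 2.06 CPM per kb in the same libraries. FZD6 had 383, 352 and 339 CPM in adherent shCtrl and 209, 200 and 239 CPM in adherent shSigma libraries, and 309 to 314 CPM against 155 to 168 CPM in tumor spheres. It was lower in every shSigma library, by 0.80 ± 0.08 and 0.96 ± 0.05 on the log2 scale (adjusted p = 0.000203 and 1.96e-08). FZD7, a receptor often tied to stem-like cells, moved the other way from a much lower level. It had 7.64, 7.61 and 9.11 CPM in adherent shCtrl and 18.2, 17.9 and 16.7 CPM in adherent shSigma libraries, and 9.599, 7.29 and 8.77 CPM against 16.1, 17.0 and 17.4 CPM in tumor spheres. All shSigma libraries were higher, with log2 fold changes of 1.06 ± 0.11 (adjusted p = 0.000237) and 0.97 ± 0.11 (adjusted p = 1.53e-05).

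All 7 tested Frizzled genes were called in tumor spheres, 5 as higher and 2 as lower (61.1% of all genes called), and 2 of 7 in adherent cells (50.0% of all genes). FZD1, FZD2, FZD4 and FZD5 were higher in tumor spheres by 0.26 to 0.74 on the log2 scale (FZD1 was at -0.10 and FZD5 at 0.08 once the median of the 40 nearest genes was subtracted, neither called), and FZD3 was lower by 0.18 ± 0.07 (adjusted p = 0.0494). The calls of FZD3 and FZD5 in tumor spheres were each lost without any 1 of 5 of the 6 libraries, at -0.21 to -0.13 and at 0.23 to 0.28. FZD8 was not tested, with 7, 6 and 4 counts in adherent shCtrl, 0, 1 and 1 in adherent shSigma, 5, 12 and 9 in tumor sphere shCtrl and 3, 7 and 1 in tumor sphere shSigma libraries.

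Of the LRP co-receptors, LRP5 had 24.6 to 77.3 CPM in adherent shCtrl and 45.6 to 127.8 CPM in adherent shSigma libraries, which overlapped, and 56.9 to 93.5 CPM against 111 to 118 CPM in tumor spheres, which did not. Its adherent log2 fold change was 0.90 ± 0.53, and the tumor sphere value was 0.57 ± 0.15 (adjusted p = 0.00831). The tumor sphere call of LRP5 was lost with the median of the 40 nearest genes subtracted (0.29, adjusted p = 0.126), and without the filter on low counts (adjusted p = 0.1). In 1 fit of all 12 libraries, which shares the wide adherent spread, the tumor sphere calls of LRP5, FZD2, DVL1 and DVL2 were lost (adjusted p = 0.199 to 0.368). LRP6 was listed at 0 in all 12 libraries. So were all 7 genes of the table in the stretch of chromosome 12 from BCL2L14 to DUSP16 that contains it, while the flanking ETV6 and CREBL2 had 489 to 762 and 694 to 1036 counts. Genes that cells commonly use, PSME1, PSME2, NEDD8, CLIC1, NSF and CD99, were listed at 0 in all libraries as well, so that a listed 0 in this table gives no level for LRP6.

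Among the receptors outside the Frizzled family, ROR1 and ROR2, kinase-like receptors for WNT5A-type ligands, moved in opposite directions in tumor spheres. ROR1 had 19.7, 21.9 and 22.1 CPM in adherent shCtrl and 25.2, 23.6 and 26.6 CPM in adherent shSigma libraries, and 13.0, 11.6 and 11.03 CPM against 37.0, 39.6 and 37.3 CPM in tumor spheres. The adherent groups were close together without overlap and the tumor sphere groups far apart, with log2 fold changes of 0.18 ± 0.08 (adjusted p = 0.104) and 1.67 ± 0.09 (adjusted p = 1.88e-08). The difference between cultures was 1.43 ± 0.12 (adjusted p = 1.71e-06). ROR2 had 8, 12 and 23 counts in adherent shCtrl and 6, 8 and 9 counts in adherent shSigma libraries, where it was not tested. In tumor spheres it had 4.62, 3.92 and 3.68 CPM in shCtrl and 0.353, 0.159 and 0.371 CPM in shSigma libraries. It was thus present at a few CPM in shCtrl spheres and below 1 CPM in the 3 other groups. Its log2 fold change was -3.76 ± 0.27 (adjusted p = 2.87e-07), and the difference between cultures was -3.15 ± 0.59 (adjusted p = 0.00122). In tumor spheres ROR2 passed the filter on low counts only through its shCtrl libraries, with 3 to 7 counts in the shSigma libraries. For the difference between cultures it also passed only through these shCtrl sphere libraries. RYK, a further Wnt receptor, was not called in either culture.

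The 250 bases before the RefSeq start of this receptor pair are shown because the transcripts moved apart in tumor spheres, ROR1 at chr1:63773767-63774016 on the + strand and ROR2 at chr9:91950229-91950478 on the - strand.
ROR1: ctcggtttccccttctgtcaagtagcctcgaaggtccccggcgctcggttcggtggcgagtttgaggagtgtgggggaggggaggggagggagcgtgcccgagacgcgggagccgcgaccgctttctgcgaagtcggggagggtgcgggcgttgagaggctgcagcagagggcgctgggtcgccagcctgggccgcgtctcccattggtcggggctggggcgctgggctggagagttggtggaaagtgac
ROR2: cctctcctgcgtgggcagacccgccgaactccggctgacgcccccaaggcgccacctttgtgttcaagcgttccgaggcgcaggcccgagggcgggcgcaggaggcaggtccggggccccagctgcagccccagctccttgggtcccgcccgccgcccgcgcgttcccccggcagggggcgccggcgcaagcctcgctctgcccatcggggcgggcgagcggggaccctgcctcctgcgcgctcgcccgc
Neither held the TCF/LEF letters. Both were rich in G and C, at 69.2% with 24 CG pairs for ROR1 and 78.0% with 32 CG pairs for ROR2, against medians of 58.0% and 11 over all windows.

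The regulators of receptor turnover include ZNRF3 and RNF43, ubiquitin ligases that remove Frizzled proteins, and the LGR receptors, which block them when bound to R-spondin. ZNRF3 had 13.5, 15.5 and 15.7 CPM in adherent shCtrl and 15.1, 17.4 and 17.5 CPM in adherent shSigma libraries, and 16.8, 14.1 and 14.6 CPM against 22.8, 23.7 and 23.2 CPM in tumor spheres. The groups overlapped in adherent cells and were apart in tumor spheres (0.62 ± 0.09, adjusted p = 0.000104). RNF43 had 0.691, 0.803 and 0.513 CPM in adherent shCtrl and 0.714, 1.28 and 1.16 CPM in adherent shSigma libraries, and 6.15, 5.35 and 4.48 CPM against 6.90, 6.73 and 8.21 CPM in tumor spheres. Its small rise in tumor spheres (0.45 ± 0.14, adjusted p = 0.0168) was lost without replicate 3 of tumor sphere shCtrl or of tumor sphere shSigma, at 0.35 and 0.36. LGR6 had 17, 20 and 24 counts in adherent shCtrl and 1, 3 and 1 counts in adherent shSigma libraries. This is 9.96-fold lower, with an exact 95% interval of 4.04 to 31.8 that covers counting error only, and the log2 fold change of -3.29 was called (adjusted p = 0.000819). LGR6 passed the filter on low counts there only through its shCtrl libraries. LGR4 had 144 to 200.5 CPM in all libraries, and its adherent rise of 0.21 ± 0.07 (adjusted p = 0.0446) was lost without any 1 of 3 libraries, namely replicates 2 and 3 of adherent shCtrl and replicate 3 of adherent shSigma. LGR5, a stem cell marker and feedback target, had at most 2 counts in any library and was not tested.

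Between the receptors and the destruction complex stand Dishevelled and its modifiers. PRICKLE1, a planar polarity protein, had 1.57, 2.16 and 2.17 CPM in adherent shCtrl and 8.33, 7.99 and 9.55 CPM in adherent shSigma libraries, and 1.58, 1.82 and 1.36 CPM against 4.28, 5.03 and 5.03 CPM in tumor spheres. All shSigma libraries were above all shCtrl libraries, with log2 fold changes of 2.07 ± 0.16 (adjusted p = 5.2e-05) and 1.59 ± 0.17 (adjusted p = 9.25e-06), and its exons overlap those of PPHLN1 on the opposite strand. NKD1, a Dishevelled antagonist and feedback target, had 7.45, 8.96 and 8.56 CPM in adherent shCtrl and 5.997, 7.68 and 6.99 CPM in adherent shSigma libraries, and 14.7, 13.8 and 19.7 CPM against 6.80, 5.61 and 6.62 CPM in tumor spheres. The adherent groups overlapped (-0.33 ± 0.14, adjusted p = 0.0781), whereas in tumor spheres all shSigma libraries were lower (-1.34 ± 0.15, adjusted p = 1.24e-05), a difference between cultures of -1.07 ± 0.21 (adjusted p = 0.00208). The Dishevelled genes were not called in adherent cells, where DVL1 ranged over 11.1 to 40.3 CPM within shCtrl alone. In tumor spheres DVL1 and DVL2 rose by 0.75 and 0.26 and DVL3 was at 0.03 ± 0.07. The call of DVL1 was lost without replicate 2 of tumor sphere shCtrl (0.60, adjusted p = 0.0979), and that of DVL2 with the GC content offsets (0.10, adjusted p = 0.173).

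In the destruction complex, AXIN2 had the largest tumor sphere log2 fold change of the 9 genes tested. AXIN2, a scaffold and the feedback target most widely used as a readout of β-catenin activity, had 0.883, 1.52 and 0.986 CPM in adherent shCtrl and 1.29, 1.43 and 1.35 CPM in adherent shSigma libraries. In tumor spheres it had 3.40, 2.21 and 2.32 CPM in shCtrl and 10.8, 9.32 and 9.96 CPM in shSigma libraries. The adherent groups overlapped near 1 CPM, and the shSigma spheres stood above every other library. The log2 fold changes were 0.20 ± 0.26 (95% interval -0.39 to 0.80) and 1.93 ± 0.16 (adjusted p = 9.78e-07), with a difference between cultures of 1.66 ± 0.31 (adjusted p = 0.00114). AXIN1, the related scaffold, had 20.2, 28.2 and 37.5 CPM in adherent shCtrl and 43.4, 46.7 and 30.4 CPM in adherent shSigma libraries, and 47.9, 32.0 and 42.8 CPM against 69.9, 60.1 and 60.3 CPM in tumor spheres. Its adherent groups overlapped, and in tumor spheres it rose by 0.63 ± 0.13 (adjusted p = 0.00273).

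The kinases of the complex differed by less than 2-fold. GSK3B had 73.1, 77.7 and 74.3 CPM in adherent shCtrl and 109.5, 106.5 and 126.9 CPM in adherent shSigma libraries, and 72.0, 69.5 and 67.5 CPM against 79.2, 80.1 and 85.5 CPM in tumor spheres. All shSigma libraries were higher, by 0.54 ± 0.07 (adjusted p = 0.000547) and 0.22 ± 0.06 (adjusted p = 0.00536). GSK3A had 46.8, 57.3 and 64.9 CPM in adherent shCtrl and 60.5, 56.6 and 50.4 CPM in adherent shSigma libraries, and 80.2, 85.9 and 79.9 CPM against 73.0, 66.3 and 65.5 CPM in tumor spheres, where alone it was called lower (-0.27 ± 0.06, adjusted p = 0.00279). CSNK1A1, the priming kinase casein kinase 1α, had 249.1, 259.9 and 245.9 CPM in adherent shCtrl and 252.0, 250.5 and 275.1 CPM in adherent shSigma libraries. Each shSigma sphere library was lower, with 209.9, 204.9 and 220.4 CPM against 181.6, 169.4 and 186.6 CPM (-0.24 ± 0.05, adjusted p = 0.00223). The scaffold APC had 80.3, 87.1 and 81.7 CPM in adherent shCtrl and 72.8, 75.0 and 83.9 CPM in adherent shSigma libraries. The tumor sphere libraries had 86.7, 84.0 and 84.1 CPM against 84.2, 83.3 and 89.9 CPM, and the groups overlapped in both cultures. Its log2 fold changes were -0.17 ± 0.07 (95% interval -0.33 to -0.01, adjusted p = 0.073) and 0.01 ± 0.06. Of the F-box proteins, FBXW11 was lower in both cultures, by 0.42 ± 0.07 and 0.19 ± 0.05 (the tumor sphere value was -0.04 and not called, adjusted p = 0.479, once the median of the 40 nearest genes was subtracted), and BTRC was at -0.01 ± 0.07 and 0.05 ± 0.07. APC2 had at most 18 counts in any library and was not tested in adherent cells, where its summed counts were 9 in shCtrl and 19 in shSigma libraries (2.59-fold higher relative to depth, exact interval 1.11 to 6.49 for counting error only). In tumor spheres it was tested and not called, at -0.07 ± 0.28.

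CTNNB1, the gene of β-catenin (ENSG00000168036, chromosome 3, 41194741 to 41260096, + strand, GRCh38), stood at a mean of 42.0 CPM per kb in adherent shCtrl libraries, below FZD6, DKK1 and FBXW11 among the members. It had 517.2, 496.9 and 468.7 CPM in adherent shCtrl and 386.5, 386.0 and 453.1 CPM in adherent shSigma libraries. In tumor spheres it had 897.6, 920.9 and 834.7 CPM in shCtrl and 564.1, 551.9 and 557.2 CPM in shSigma libraries. Every shSigma library was below every shCtrl library of its culture, narrowly in adherent cells and widely in tumor spheres. The log2 fold changes were -0.34 ± 0.08 (95% interval -0.52 to -0.16, adjusted p = 0.00853) and -0.67 ± 0.05 (95% interval -0.79 to -0.55, adjusted p = 8.26e-07). The adherent call was lost without replicate 1 or 2 of adherent shCtrl or replicate 1 or 2 of adherent shSigma, at -0.27 to -0.23 (adjusted p = 0.0756 to 0.133). The tumor sphere call held without each of the 6 libraries. The difference between cultures was -0.39 ± 0.10 (adjusted p = 0.0119), a call lost without any 1 of 7 libraries (adjusted p = 0.0505 to 0.0757), namely replicates 1 and 2 of tumor sphere shCtrl, all 3 of tumor sphere shSigma and replicates 2 and 3 of adherent shCtrl.

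The genes around CTNNB1 on chromosome 3 differed by a similar amount. The 40 nearest tested genes, all within 3.16 Mb of its start, had a median log2 fold change of -0.58 in adherent cells and -0.55 in tumor spheres, and 35 and 37 of them were below 0. With that median subtracted, CTNNB1 was at 0.24 (adjusted p = 0.0376) in adherent cells and at -0.12 (adjusted p = 0.0791) in tumor spheres. Its difference between cultures, less the median of the 40 nearest genes, was -0.26 (adjusted p = 0.08) and no longer called. The adjusted p-values after subtraction use the SE of the gene alone and leave out the spread of the neighbour median. WNT5A, elsewhere on chromosome 3, lay among genes with medians of -0.57 and -0.55 and was at -0.06 and 0.07 after subtraction, neither of them called. WLS on chromosome 1 lay among genes with medians of -0.69 and -0.47 and was at -0.01 (adjusted p = 0.957) and -0.17 (adjusted p = 0.0123). FZD6 lay among genes with medians of -0.54 and -0.50 and remained lower at -0.25 (adjusted p = 0.0379) and -0.46 (adjusted p = 9.95e-06). ROR1 shares the region of chromosome 1 with WLS and was higher after subtraction in both cultures, at 0.87 (adjusted p = 0.000151) and 2.13 (adjusted p = 2.78e-09). For AXIN2, LEF1, WNT5B and NKD1 the medians of the neighbours were between -0.27 and 0.11, and WNT5B, LEF1 and, in tumor spheres, AXIN2 and NKD1 kept their calls. What moves these regions together was not tested.

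**Figure D4:**
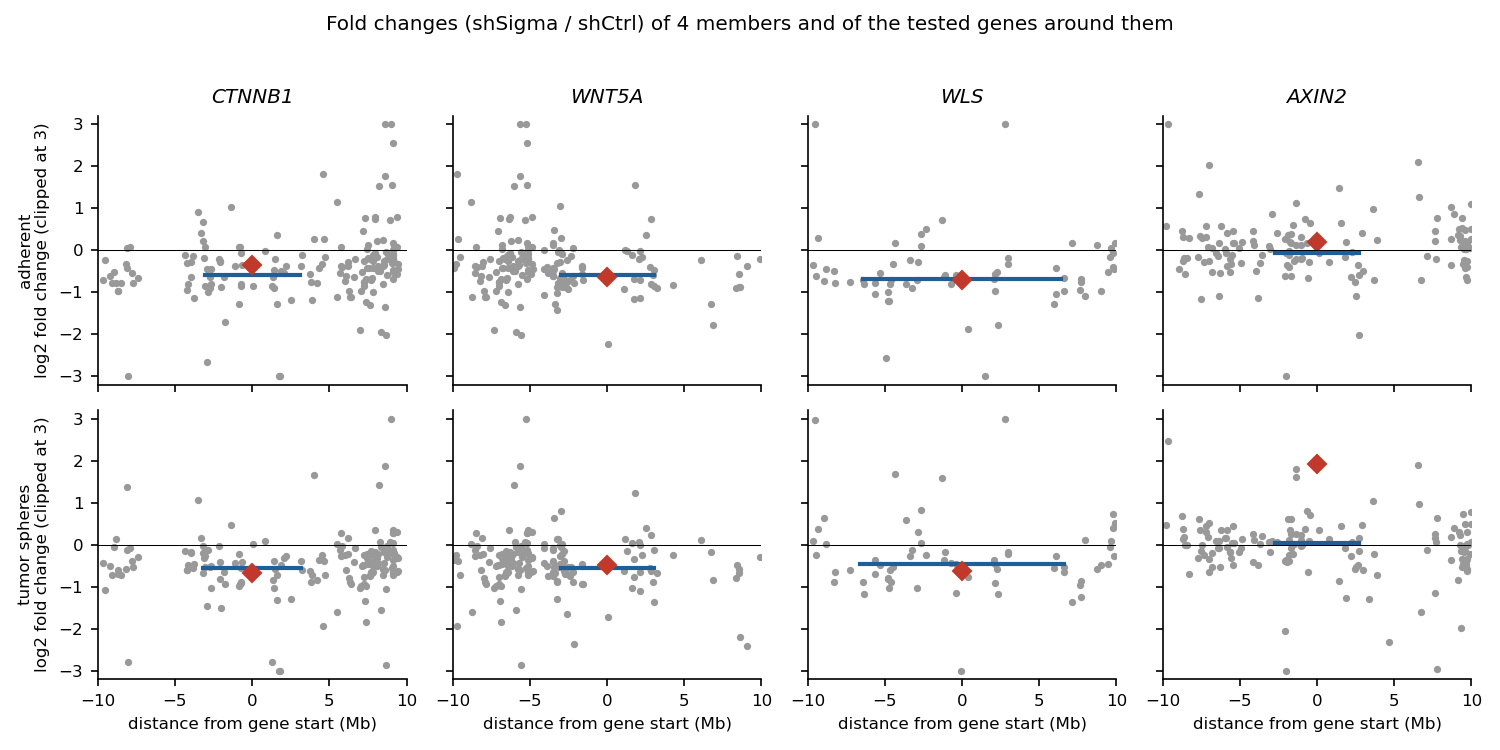
log2 fold change of shSigma over shCtrl (vertical axis, values beyond 3 drawn at 3) against distance from the start of the named member in Mb (horizontal axis), for adherent cells (top) and tumor spheres (bottom); diamonds are the members, grey points other tested genes and the blue line the median of the 40 nearest genes over the span they cover. CTNNB1, WNT5A and WLS lie close to negative neighbour medians of -0.69 to -0.47, and AXIN2 lies among genes with a median near 0.

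In the nucleus, LEF1, a DNA-binding partner of β-catenin and a feedback target, had 3.26, 3.38 and 3.51 CPM in adherent shCtrl and 0.857, 1.13 and 1.06 CPM in adherent shSigma libraries, and 5.27, 4.31 and 4.23 CPM against 1.86, 1.11 and 1.85 CPM in tumor spheres. All shSigma libraries were lower, with log2 fold changes of -1.80 ± 0.17 (adjusted p = 0.000131) and -1.51 ± 0.20 (adjusted p = 5.16e-05). TCF7L2, the TCF gene with the highest level per kb (4.59 CPM per kb in adherent shCtrl libraries), was higher in both cultures, by 0.27 ± 0.07 and 0.76 ± 0.11, the first of which DESeq2 did not call (adjusted p = 0.0693) and neighbour subtraction took to 0.07. TCF7 had 7.56, 9.22 and 9.11 CPM in adherent shCtrl and 10.7, 12.03 and 10.6 CPM in adherent shSigma libraries, and 15.7, 11.9 and 14.4 CPM against 10.7, 12.5 and 11.9 CPM in tumor spheres. Neither difference of TCF7 was called (0.30 ± 0.13 and -0.27 ± 0.12), but the difference between cultures was (-0.63 ± 0.18, adjusted p = 0.0158). TCF7L1 was called higher in tumor spheres only (0.44 ± 0.14), a call lost without replicate 1 or 2 of tumor sphere shCtrl or replicate 2 of tumor sphere shSigma, at 0.36 to 0.38. BCL9, BCL9L and PYGO2, which link β-catenin to transcription, were higher in tumor spheres by 0.52, 0.92 and 0.24. BCL9 and PYGO2 were also higher in adherent cells, by 0.32 and 0.24, of which DESeq2 did not call PYGO2 (adjusted p = 0.0552). After neighbour subtraction adherent BCL9 was at 0.22 (adjusted p = 0.0532) and PYGO2 at 0.06 in either culture, none of them called. BCL9L had 67.3 to 158.7 CPM within adherent shCtrl alone and was not called there. PYGO2 overlaps exons of the abundant SHC1 on the same strand, so that reads of the 2 genes may be hard to separate. Exons of FZD4, FZD6, GSK3A, TCF7, DVL1, APC2, WLS, RNF43, LGR4, LEF1 and BCL9L also overlap those of a gene of the table on the opposite strand, and their counts carry the same uncertainty as those of DKK3.

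Read side by side, the 8 feedback targets did not move in 1 direction. Of the 7 tested in adherent cells, only LEF1 was called, as lower, where 50.0% of all genes were called. In tumor spheres AXIN2, ZNRF3, RNF43 and DKK1 were called higher, LEF1 and NKD1 lower, and TCF7 was not called, where 61.1% of all genes were called. Their median log2 fold change was 0.10 in adherent cells and 0.38 in tumor spheres, against -0.01 and 0.00 over all genes.

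A further 101 genes of the pathway outside the list were counted by group. In adherent cells 22 of the 76 tested were higher and 19 lower, which is 53.9% called against 50.0% of all genes (22.3% higher, 27.7% lower). In tumor spheres 29 of the 79 tested were higher and 29 lower, which is 73.4% called against 61.1% of all genes (30.2% higher, 30.9% lower). The counts by group below stand against the same shares of all genes. Other regulators of the destruction complex were called in 7 of 19 and 12 of 19 cases, and only 1 of these calls was past a 2-fold change. Nuclear cofactors were higher in 5 and lower in 4 of 16 in adherent cells, and higher in 8 and lower in 5 of 16 in tumor spheres. Planar polarity genes were lower in 4 and higher in 0 of 10 in adherent cells and lower in 7 and higher in 1 of 10 in tumor spheres, among them DAAM2, a formin partner of Dishevelled, at -1.99 and -2.37. Further β-catenin targets were higher in 9 and lower in 6 of 21 in adherent cells, and higher in 12 and lower in 7 of 22 in tumor spheres, with TNFRSF19 (1.42 and 1.88) and EDN1 (1.56 and 2.67) past a 2-fold rise in both. Of the other receptors and R-spondins, 4 of 5 and 5 of 6 were called. Among these the ligand RSPO3, which stabilizes Frizzled receptors through the LGR proteins, rose by 1.00 and 2.49, and KREMEN2, a DKK receptor, fell by 1.27 and 1.71. The adherent rise of RSPO3, from a mean of 0.677 to 1.43 CPM, only just met both thresholds (adjusted p = 0.0456). KREMEN2 had at most 64 counts in any library. Of the other secreted antagonists, 1 of 3 and 1 of 4 were called, namely WIF1 in both, which fell by 1.99 and 1.97 and had at most 28 counts in any library. WIF1 passed the filter on low counts in both cultures only through its shCtrl libraries. Its means in shSigma cells were 0.225 CPM in adherent culture and 0.332 CPM in tumor spheres. Other ligands were called in 1 of 2 cases in adherent cells and in 0 of 2 in tumor spheres.

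The change from adherent culture to tumor spheres uses the same libraries as the comparisons above, so its values stand beside them and are no separate evidence. In shCtrl cells, 18 of 49 tested members were higher and 11 lower in tumor spheres (53.7% of all genes called, 27.4% higher and 26.3% lower), and 8 were past 2-fold (15.8% of all genes). In shSigma cells, 13 of 45 were higher and 10 lower (47.1% called, 21.9% higher and 25.2% lower), and 6 were past 2-fold (9.32%). The feedback target RNF43 rose in both lines, by 2.98 ± 0.22 in shCtrl and 2.81 ± 0.20 in shSigma cells. AXIN2 rose in both as well, by 1.22 ± 0.27 and 2.90 ± 0.13, and CTNNB1 by 0.84 ± 0.07 and 0.47 ± 0.06. WNT11 rose from at most 0.434 CPM in adherent cells by 1.82 ± 0.42 and 1.83 ± 0.38. It passed the filter on low counts there only through its tumor sphere libraries. Its adherent libraries held 3, 5 and 11 counts in shCtrl and 4, 5 and 5 counts in shSigma cells. DKK1 fell by 0.80 ± 0.07 and 0.42 ± 0.06. The change went in opposite directions in the 2 lines for 3 members called in both. ROR1 fell by 0.84 ± 0.10 in shCtrl and rose by 0.62 ± 0.07 in shSigma cells. SFRP1 rose by 0.75 ± 0.07 in shCtrl and fell by 0.49 ± 0.05 in shSigma cells. PORCN rose by 0.78 ± 0.12 in shCtrl and fell by 0.39 ± 0.14 in shSigma cells (adjusted p = 0.0496), a call lost without any 1 of 5 of the 6 libraries. NKD1 rose in shCtrl cells (0.95 ± 0.16, adjusted p = 0.00154) and was at -0.09 ± 0.14 in shSigma cells, and ROR2 rose in shCtrl cells by 2.81 ± 0.31 (adjusted p = 0.000182). ROR2 passed the filter on low counts there only through its tumor sphere libraries, with 8, 12 and 23 counts in the adherent ones.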

How the data were processed

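RNA-seq libraries of adherent and tumor sphere DU145 cells were made from 800 ng of total RNA with a directional kit and read for 75 bases from one end. The authors aligned the reads to GRCh38.p12 with STAR (version 2.6.1c in the submitters' processing notes), counted them per gene and deposited raw counts of 28747 genes without normalization. The annotation used for counting, whether strand was used and how multiply aligned reads were treated are not given in the sources used here. The authors used DESeq2 for testing.

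Here the deposited counts were analysed with edgeR 4.0.16 in R 4.3.3, using TMM scaling, filterByExpr with a minimum count of 10, the robust, two-sided quasi-likelihood test, p-values adjusted (Benjamini-Hochberg) over every gene tested, and a prior count of 0.125. Each culture or line was fitted on its own and the interaction on all 12 libraries. The gene targeted by the hairpin is not reported here. The standard error (SE) was the absolute log2 fold change divided by the square root of F. Genes with an adjusted p under 0.05 were called, and those called with an absolute log2 fold change over 1 were counted as past 2-fold. Members, gene lists and roles were chosen with earlier results of these data known. Values per library are given for the core of the destruction complex, the feedback targets and members past 2-fold in either hairpin comparison. A few further members (WNT10A, LGR4 and others) are named with counts or ranges. Other pathway genes are named where they passed 2-fold in both cultures in the same direction, at most 3 a list by mean absolute log2 fold change. Exon lengths and positions come from GENCODE release 44, and 26153 genes had a symbol there. On simulated counts, 154 of 197 genes changed about 2-fold were recovered in the adherent comparison with 19 false calls, and 155 of 192 in the tumor sphere comparison with 10. The main fits have no replicate block, as the study's methods name none and the labels do not say that a number marks a shared batch. Same-numbered replicates did not deviate together in every pair of any comparison. Intervals of counts cover counting error only. After neighbour subtraction, p-values came from a t-test with the SE of the gene alone, which takes the neighbour median as known. Alternatives included the Wald test of DESeq2 1.42.0, its size factors, other filters, 1 fit of all libraries, a replicate block, each library left out, neighbour subtraction and, added after the data were seen, GC content offsets.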

Additional observations from a re-analysis of the deposited data

Results flagged for a closer look

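The log2 fold change of shSigma over shCtrl differed between tumor spheres and adherent cells for 17 members by the interaction test, given here as the log2 fold change in tumor spheres minus that in adherent cells. It was higher in tumor spheres for WNT10B (1.14), DKK1 (0.3631), ROR1 (1.4322), ZNRF3 (0.4573), AXIN2 (1.6597) and TCF7L2 (0.4362). It was lower in tumor spheres for WNT9A (-1.1552), PORCN (-1.1873), DKK3 (-1.3197), SFRP1 (-1.2626), FZD3 (-0.3553), ROR2 (-3.1548), NKD1 (-1.0659), GSK3B (-0.379), CSNK1A1 (-0.2834), CTNNB1 (-0.3904) and TCF7 (-0.6289). The calls of ROR1, ROR2, SFRP1, AXIN2, NKD1, DKK3, PORCN, WNT9A, WNT10B and DKK1 held without each of the 12 libraries. Of these, ROR2 passed the filter on low counts only through its tumor sphere shCtrl libraries. CSNK1A1 lost its call without any of the 12 libraries, FZD3 without any of 11, CTNNB1 without any of 7, TCF7L2 without any of 6, GSK3B without any of 4, TCF7 without any of 3 and ZNRF3 without 1. With the median of the 40 nearest genes subtracted, CTNNB1, TCF7, TCF7L2 and FZD3 lost their calls as well (adjusted p = 0.0583 to 0.08).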

How the results depend on the processing

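Over 3607 values of single members under the alternatives, 3295 kept direction and call, 225 lost a call, 76 gained one and 11 changed direction where a call was involved. Subtracting the median of the 40 nearest genes turned CTNNB1 in adherent cells to 0.2425, WNT5A and FZD1 in tumor spheres to 0.0738 and -0.0999, and the culture change of AXIN1 in shSigma cells to -0.0783. With GC content offsets, adherent RYK was at 0.1131 and adherent CSNK1A1 at 0.118, and the culture change of DVL2, AXIN1, PYGO2 and BCL9L in shCtrl cells was -0.2098, -0.2147, -0.2496 and -0.6112 and that of PYGO2 in shSigma cells -0.1678. The cause was not tested. The count of adherent members called higher (12) was 19 with GC content offsets and 6 with the replicate block. The count of members lower in shCtrl spheres than in adherent shCtrl cells (11) was 7 with neighbour subtraction and 6 with the replicate block, and the count past 2-fold there (8) was 4 with at least 10 counts in every library. Same-numbered replicates deviated from their group means with correlations of -0.817 to -0.0165 in adherent cells and -0.0826 to 0.0535 in tumor spheres. For the culture change the correlations were -0.427 to 0.226 in shCtrl and -0.0364 to 0.379 in shSigma cells. With few libraries in each group, which also differed along GC content, these values cannot settle whether the numbers pair the samples. The block left the other counts of members within 1.5 times.

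Without each library in turn, the members called higher, lower and past 2-fold numbered 11 to 12, 7 to 10 and 9 to 10 in adherent cells and 20 to 22, 12 to 14 and 9 to 11 in tumor spheres. For the culture change they numbered 15 to 23, 6 to 11 and 6 to 12 in shCtrl cells and 10 to 16, 7 to 11 and 5 to 7 in shSigma cells, and for the interaction 4 to 8, 6 to 10 and 8 to 9. The culture change in shCtrl cells had 6 or 7 members lower without replicate 2 or 3 of tumor sphere shCtrl or replicate 2 of adherent shCtrl, and the interaction 6 or 7 lower without replicate 1 or 2 of either tumor sphere group. Members under about 10 counts a library (WNT3, WNT7A, FZD8, LGR5) gave no test at this depth.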
